A study of Rattus norvegicus with 4 samples.

Results

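The genes described here are 36 regulators of the cell cycle, chosen by symbol from a list of cyclins, replication factors and mitotic proteins. Of these, 35 had a row among the 32402 features of the matrices, and Ccnb2, a B-type cyclin, was not analysed here. The 35 comprise 5 genes of the G1 phase (the cyclins Ccnd1, Ccnd2, Ccne1 and Ccne2, with the kinase Cdk2), 9 genes of the S phase (Mcm2 to Mcm7, Pcna, Rrm1 and Rrm2) and 21 mitotic genes. The proliferation marker Mki67 is counted with the mitotic genes, although its protein is present throughout the cycle.

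The kidneys came from Sprague-Dawley rats and were embedded, frozen, cut at 10 µm and profiled with the Visium spatial assay, with 1 section for each of 4 groups. The PAN_LS-FMD rat had been injected with puromycin aminonucleoside (PAN), a toxin of podocytes that causes nephrotic kidney disease, and was then given LS-FMD, a diet low in salts that mimics fasting, for 6 cycles. The PAN rat had the same injection and ate ad libitum. For the injected rats the design gives 5 months since the injection and 6 weeks since treatment. The healthy_LS-FMD rat had no injection and 1 diet cycle, and was examined 72 hours into refeeding, while the healthy rat had no treatment. The diet groups therefore differed in injection, number of cycles and time since the last cycle, so the PAN_LS-FMD and healthy_LS-FMD sections are not matched to each other. The age of the rats was not given in the sources used here.

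A Visium spot is a small disc of tissue that can hold several cells, and each count is a UMI, a molecular tag that stands for 1 captured RNA molecule. After spots under 500 UMIs were left out, the PAN_LS-FMD section had 2187 spots and 34965670 UMIs, the PAN section 2724 spots and 24924170 UMIs, the healthy_LS-FMD section 2593 spots and 25330872 UMIs, and the healthy section 2866 spots and 58568499 UMIs. The median depth per spot was 14959, 8482, 8823 and 19531 UMIs in that order. Levels are given as CPM, the counts per 1e+06 UMIs of the section. A count of 3, the limit that a count of 0 allows, was worth between 0.0512 CPM in the healthy section and 0.120 CPM in the PAN section. Each interval is a 95% interval of counting error alone. With 1 section per group there was no replicate check and no test between animals, so every difference is a difference between these sections. Markers of podocytes, proximal tubule, thick ascending limb, distal tubule and collecting duct were present in all 4 sections, as the kidney label requires. Single genes were absent, however. The podocyte gene Synpo had 0 UMIs in PAN and in healthy_LS-FMD. Of 4 distal tubule markers, 1 had 0 UMIs in PAN_LS-FMD, in PAN and in healthy.

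As background, a cell enters the cycle when D-type cyclins, and then cyclin E with Cdk2, release E2F transcription factors from inhibition. E2F switches on the replication genes, among them the Mcm proteins, which form the helicase that opens DNA, Pcna, the clamp that holds the polymerase, and ribonucleotide reductase (Rrm1, Rrm2), which makes deoxynucleotides. Mitotic genes come later, under the MuvB complex with B-Myb and FoxM1, which recognises a promoter element called CHR, often near a CCAAT box bound by NF-Y. Tubule cells of an adult kidney divide rarely, and divide more after injury.

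Promoters were read from RefSeq windows of the rat assembly GRCr8 to show these elements in the genes that the results below turn on. Windows were at hand for 18 of the 22 listed mitotic genes and for 7 of the 9 S-phase genes. Within 250 bases before the gene start, on either strand, the CHR letters (TTTGAA, with TTCGAA as the alternative form) stood in 9 of 18 mitotic promoters and in 17.4% of all 33469 windows. CCAAT stood in 15 of 18 mitotic promoters and in 34.0% of all windows, and CHR and CCAAT together in 8 of 18 and in 6.31% of all. Of 7 S-phase promoters, 3 had CHR letters, 6 had CCAAT and 2 had both. These letters were therefore not particular to the mitotic genes. The E2F letters were searched as TTCCCGC, then in a second form as TTGGCGC, and in the last form as TTCGCGC. They stood in 5 of 7 S-phase promoters, in 2 of 18 mitotic promoters and in 6.04% of all windows. The last 120 bases before the start are printed 5′ to 3′ on the strand of the gene, in lower case with CHR, CCAAT and E2F letters of either strand in capitals, and capitals longer than 1 motif mark motifs that overlap or touch. Mki67 (chr1:199952594-199952713, minus strand), Top2a (chr10:84473094-84473213, minus strand), Cdk1 (chr20:19265173-19265292, plus strand), Kif23 (chr8:71320585-71320704, minus strand) and Cdc20 (chr5:137255800-137255919, minus strand) carry CHR with CCAAT. Kif11 (chr1:244536747-244536866, plus strand), shown because it was the most abundant mitotic gene, has a CCAAT box and neither searched CHR form in its window. The searched letters were not paired with the size of the fold between PAN and healthy given below. Birc5, which like Kif11 was not called, has CHR letters starting 8 bases before its start. Plk1, Ccnb1, Cenpe, Nusap1 and Cenpf, with folds of 4.42 to 5.40, have neither searched CHR form in their windows. Other forms, such as TTTAAA, were not searched, and these letters stand in the windows of Kif11, Plk1, Ccnb1, Cenpe and Nusap1. The search therefore cannot decide whether CHR elements in general go with the size of the fold. Mcm5 (chr19:13488693-13488812, plus strand), Mcm6 (chr13:42404353-42404472, minus strand) and Mcm7 (chr12:22163179-22163298, minus strand) show E2F letters with CCAAT. A match of letters is a description of the sequence and not evidence of binding.
Mki67: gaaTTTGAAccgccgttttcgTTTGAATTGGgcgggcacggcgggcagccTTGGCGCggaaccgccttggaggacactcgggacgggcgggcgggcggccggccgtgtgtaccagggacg
Top2a: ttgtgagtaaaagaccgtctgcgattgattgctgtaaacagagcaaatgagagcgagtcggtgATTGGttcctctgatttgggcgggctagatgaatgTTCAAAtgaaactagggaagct
Cdk1: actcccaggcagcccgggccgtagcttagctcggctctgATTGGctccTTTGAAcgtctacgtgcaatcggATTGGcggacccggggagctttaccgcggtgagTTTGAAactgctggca
Kif23: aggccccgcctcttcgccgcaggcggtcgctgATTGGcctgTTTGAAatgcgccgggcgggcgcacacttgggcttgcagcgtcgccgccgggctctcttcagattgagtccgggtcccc
Cdc20: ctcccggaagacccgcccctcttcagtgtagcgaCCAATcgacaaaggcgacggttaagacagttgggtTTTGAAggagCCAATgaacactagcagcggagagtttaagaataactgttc
Kif11: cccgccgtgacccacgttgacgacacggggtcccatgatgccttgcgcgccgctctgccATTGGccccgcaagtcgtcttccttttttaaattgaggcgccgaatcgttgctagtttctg
Mcm5: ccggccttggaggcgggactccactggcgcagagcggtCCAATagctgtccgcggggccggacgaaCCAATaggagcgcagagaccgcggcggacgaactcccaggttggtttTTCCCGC
Mcm6: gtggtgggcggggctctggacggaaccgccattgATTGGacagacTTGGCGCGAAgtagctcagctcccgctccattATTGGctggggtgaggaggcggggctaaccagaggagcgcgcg
Mcm7: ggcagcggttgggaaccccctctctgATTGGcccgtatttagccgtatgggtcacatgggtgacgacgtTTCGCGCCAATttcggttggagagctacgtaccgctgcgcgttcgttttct

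The PAN section carried the highest level of all 21 mitotic genes and of 32 of the 35 genes. These counts include Bub1b and Ccnd2, with only 8 and 7 UMIs in PAN. The share of all genes that were highest in PAN is not given here, and 44.3% of all genes were called higher in PAN than in healthy. Mitotic genes summed to 72.6 CPM (69.8 to 75.4) in PAN_LS-FMD and to 189 CPM (184 to 195) in PAN. The sum was 55.7 CPM (52.8 to 58.7) in healthy_LS-FMD and 79.2 CPM (77.0 to 81.5) in healthy. The healthy_LS-FMD section held the lowest level of 15 of the 21, among them Bub1b at 0 UMIs. The share of all genes lowest there is not given here. Of 20 measured mitotic genes, 7 were called lower in healthy_LS-FMD than in healthy. Against PAN_LS-FMD, 3 of 20 were called higher in PAN_LS-FMD, so most of these ranks are not called differences. S-phase genes summed to 142 CPM in PAN_LS-FMD, 238 in PAN, 177 in healthy_LS-FMD and 136 in healthy, so PAN was again the highest. G1 genes ranked otherwise, with 187 CPM in PAN_LS-FMD, 183 in PAN, 326 in healthy_LS-FMD and 209 in healthy. More cells of a dividing kind and more of these RNAs per cell cannot be told apart in spots.

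**Figure D1:**
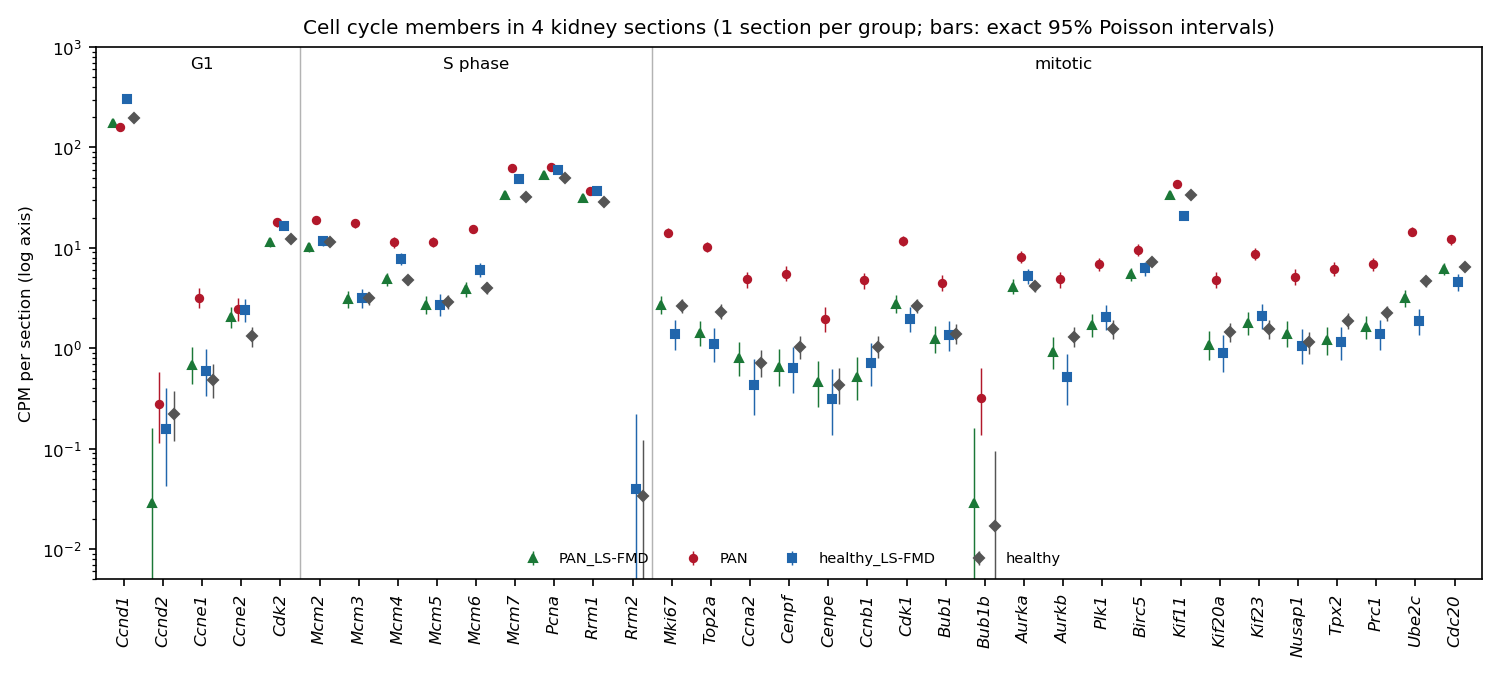
CPM of each of the 35 genes in the 4 sections on a log axis, grouped by phase, with exact 95% Poisson intervals; points at 0 UMIs are not drawn. The red PAN points lie above the other 3 sections for every mitotic gene, while Ccnd1 is highest in healthy_LS-FMD.

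Genes with at least 20 UMIs over both sections counted as measured, and a call required a fold of 1.5 or more in either direction with an interval that left out 1. Between PAN and healthy, 26 of 33 measured genes were higher and 0 were lower, where 44.3% of 13182 genes were called higher and 9.83% lower by the same rule. The median log2 fold of all genes was 0.51, and the roles stood in a graded order relative to it. It was 0.53 over 5 G1 genes, 1.10 over 8 S-phase genes and 2.02 over 20 mitotic genes. By role, 2 of 5 G1 genes, 6 of 8 S-phase genes and 18 of 20 mitotic genes were called higher. The count matrix of the healthy section was made with Space Ranger 2.0.1 and the other 3 with version 1.2.1, and with healthy_LS-FMD in place of healthy, 20 of 20 mitotic genes were higher in PAN and 25 of 32 genes in all, with 1 lower (Ccnd1), where 24.7% of all genes were higher and 12.3% lower.

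Among G1 genes, Ccnd1, cyclin D1, the mitogen-responsive partner of Cdk4 and Cdk6, was at 173 CPM in PAN_LS-FMD, 159 in PAN, 307 in healthy_LS-FMD and 194 in healthy. It was thus lowest in the section with the highest mitotic level. It accounted for 92.5, 87.0, 94.0 and 93.1% of the G1 UMIs in the same order, so the G1 sum is largely Ccnd1. Ccne1, cyclin E1, which with Cdk2 drives entry into S phase, stood at 0.686 CPM in PAN_LS-FMD, 3.17 in PAN, 0.592 in healthy_LS-FMD and 0.478 in healthy. Its fold between PAN and healthy was 6.63 (4.26 to 10.6), close in size to that of the mitotic cyclin Ccna2. The paralogue Ccne2 was at 2.03, 2.45, 2.41 and 1.31 CPM in the same order of sections, lowest in healthy. Cdk2 itself was at 11.4 CPM in PAN_LS-FMD, 17.9 in PAN, 16.5 in healthy_LS-FMD and 12.4 in healthy, and its 1.45-fold difference between PAN and healthy (1.28 to 1.63) did not reach the size required. Ccnd2, another D-type cyclin, had 1, 7, 4 and 13 UMIs in that order. Its 20 UMIs over PAN and healthy just met the minimum, with a fold of 1.27 (0.427 to 3.41), and the other comparisons had too few.

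The 6 Mcm genes encode equal parts of 1 ring-shaped helicase, yet they did not move by equal amounts. Mcm3 was at 3.09 CPM in PAN_LS-FMD, 17.5 in PAN, 3.16 in healthy_LS-FMD and 3.16 in healthy, so only the PAN section stood apart. Mcm5 had the same shape, at 2.72, 11.6, 2.72 and 2.90 CPM. Mcm6 stood at 3.86 CPM in PAN_LS-FMD, 15.4 in PAN, 6.04 in healthy_LS-FMD and 4.0 in healthy. The fold between PAN and healthy was 5.54 (4.65 to 6.61) for Mcm3, 3.98 (3.28 to 4.84) for Mcm5 and 3.87 (3.28 to 4.57) for Mcm6. Smaller folds were found for Mcm4 (2.34, 1.98 to 2.77), Mcm7 (1.95, 1.82 to 2.09) and Mcm2 (1.67, 1.48 to 1.88), whose intervals do not overlap those of the other 3. Mcm7 had 33.3 CPM in PAN_LS-FMD, 62.1 in PAN, 48.9 in healthy_LS-FMD and 31.9 in healthy, so healthy_LS-FMD lay between PAN and the remaining sections.

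Pcna and Rrm1, which also serve DNA repair, differed least of the S-phase genes measured. Pcna was at 53.1 CPM in PAN_LS-FMD, 64.0 in PAN, 59.2 in healthy_LS-FMD and 49.3 in healthy, a fold of 1.30 (1.22 to 1.38) between PAN and healthy. Rrm1 was at 31.3, 36.8, 37.0 and 28.9 CPM in the same order. Both folds lay below the median of all genes in that comparison. Rrm2, the small subunit whose RNA is normally restricted to S phase, had 0 UMIs in PAN_LS-FMD, 0 in PAN, 1 in healthy_LS-FMD and 2 in healthy, so this row carried no information in any section.

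Most mitotic genes gave larger differences. Mki67 had 2.69 CPM in PAN_LS-FMD, 14.2 in PAN, 1.38 in healthy_LS-FMD and 2.66 in healthy, a fold of 5.33 (4.40 to 6.48) between PAN and healthy. Top2a, the topoisomerase that untangles chromosomes, had 1.43, 10.2, 1.11 and 2.32 CPM in the same order. For Ccna2, cyclin A2, the levels were 0.801 CPM in PAN_LS-FMD, 4.85 in PAN, 0.434 in healthy_LS-FMD and 0.717 in healthy, and its 6.77-fold difference between PAN and healthy (4.73 to 9.86) was the largest of the mitotic genes measured. PAN stood alone at the high end for each of these genes, and healthy_LS-FMD was the lowest of the other 3 sections.

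The regulators of mitotic entry had the same high section. Cdk1, the kinase that starts mitosis, was at 2.77 CPM in PAN_LS-FMD, 11.7 in PAN, 1.97 in healthy_LS-FMD and 2.66 in healthy. Its partner Ccnb1, cyclin B1, was at 0.515, 4.73, 0.711 and 1.04 CPM in that order. Plk1, a kinase that acts from entry to cytokinesis, was at 1.69 CPM in PAN_LS-FMD, 6.86 in PAN, 2.05 in healthy_LS-FMD and 1.55 in healthy. Folds between PAN and healthy for the 3 were 4.40, 4.55 and 4.42, with counting intervals that overlapped.

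Genes of the kinetochore and the spindle checkpoint also followed. Cenpf and Cenpe, proteins of the outer kinetochore, differed 5.40-fold (3.96 to 7.45) and 4.61-fold (2.79 to 7.78) between PAN and healthy, with 138 and 49 UMIs in PAN. Bub1, a checkpoint kinase, had 1.23 CPM in PAN_LS-FMD, 4.49 in PAN, 1.34 in healthy_LS-FMD and 1.40 in healthy. Its relative Bub1b had 1, 8, 0 and 1 UMIs in that order and was not measured. Aurkb, the kinase of the chromosomal passenger complex, was at 0.915 CPM in PAN_LS-FMD, 4.85 in PAN, 0.513 in healthy_LS-FMD and 1.30 in healthy. Birc5 (survivin), which belongs to the same complex, was at 5.43, 9.55, 6.24 and 7.31 CPM in that order, and its 1.31-fold difference between PAN and healthy (1.11 to 1.53) was called neither higher nor lower. The members of 1 complex therefore differed in how far they moved, with Aurkb at 3.74 (2.79 to 5.05).

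Spindle and cytokinesis genes ranged more widely. Kif23, a motor of the central spindle, had 1.77 CPM in PAN_LS-FMD, 8.63 in PAN, 2.09 in healthy_LS-FMD and 1.55 in healthy, a fold of 5.55 (4.33 to 7.17) between PAN and healthy. Its neighbours at the central spindle, Kif20a and Prc1, differed 3.32-fold and 3.09-fold. Nusap1 and Tpx2, which stabilise spindle microtubules, differed 4.49-fold and 3.29-fold. Aurka, the centrosomal kinase that Tpx2 activates, differed less, with 4.12 CPM in PAN_LS-FMD, 8.18 in PAN, 5.25 in healthy_LS-FMD and 4.15 in healthy. Of the genes of mitotic exit, Ube2c, the ubiquitin-conjugating enzyme of the anaphase-promoting complex, had 3.15 CPM in PAN_LS-FMD, 14.5 in PAN, 1.86 in healthy_LS-FMD and 4.63 in healthy. Cdc20, the activator of that complex, had 6.18, 12.1, 4.54 and 6.51 CPM in the same order. Ube2c and Cdc20 thus act on 1 complex and differed by 3.14-fold and 1.86-fold between PAN and healthy.

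Kif11, the motor that pushes spindle poles apart, was with Birc5 the other measured mitotic gene not called between PAN and healthy. It was at 33.4 CPM in PAN_LS-FMD, 43.3 in PAN, 20.8 in healthy_LS-FMD and 33.2 in healthy, and its 1.30-fold difference between PAN and healthy (1.21 to 1.40) did not reach the size required. Kif11 alone gave 46.0% of all mitotic UMIs in PAN_LS-FMD, 22.9% in PAN, 37.3% in healthy_LS-FMD and 42.0% in healthy. Without it the mitotic sum was 39.2 CPM in PAN_LS-FMD, 146 in PAN, 34.9 in healthy_LS-FMD and 46.0 in healthy, so the contrast of PAN with the other sections was wider in the remaining 20 genes.

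Whether Kif11 followed the other mitotic genes from spot to spot was read at equal depth. Spots were thinned at random to 5000 UMIs and split by the presence of a UMI of 1 gene, and the other mitotic genes, Kif11 left out, were then read in the full counts. In PAN, spots with a Mki67 UMI (142 of 2323) held 214 CPM of the other genes and spots without it 126 CPM, a fold of 1.70 (1.5 to 1.91). Splits by Top2a, Cdk1 and Ube2c gave 1.91 (1.68 to 2.17), 1.85 (1.63 to 2.08) and 1.59 (1.41 to 1.79) in PAN. In healthy, the splits by Mki67, Top2a, Cdk1 and Ube2c gave 2.15 (1.67 to 2.72), 3.75 (3.03 to 4.60), 2.80 (2.26 to 3.42) and 1.64 (1.32 to 2.01). In PAN_LS-FMD the splits by Top2a, Cdk1 and Ube2c gave 2.17 (1.37 to 3.27), 2.12 (1.51 to 2.91) and 2.05 (1.41 to 2.88), while Mki67 gave 0.756 (0.412 to 1.27) from 14 UMIs. In healthy_LS-FMD the splits by Mki67, Cdk1 and Ube2c gave 4.61 (2.84 to 7.10), 2.77 (1.78 to 4.11) and 4.11 (2.62 to 6.17), while Top2a gave 1.14 (0.368 to 2.66) from 5 UMIs. Spots chosen by 1 of these genes therefore held more of the other mitotic genes in 4 of 4 splits in PAN and in healthy and in 3 of 4 in each diet section. Spots with a Kif11 UMI did not hold more of the other mitotic genes, with folds of 1.00 (0.863 to 1.16) in PAN_LS-FMD, 1.07 (0.983 to 1.16) in PAN and 0.998 (0.899 to 1.11) in healthy. Healthy_LS-FMD gave 1.27 (1.01 to 1.58) from 93 UMIs.

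**Figure D2:**
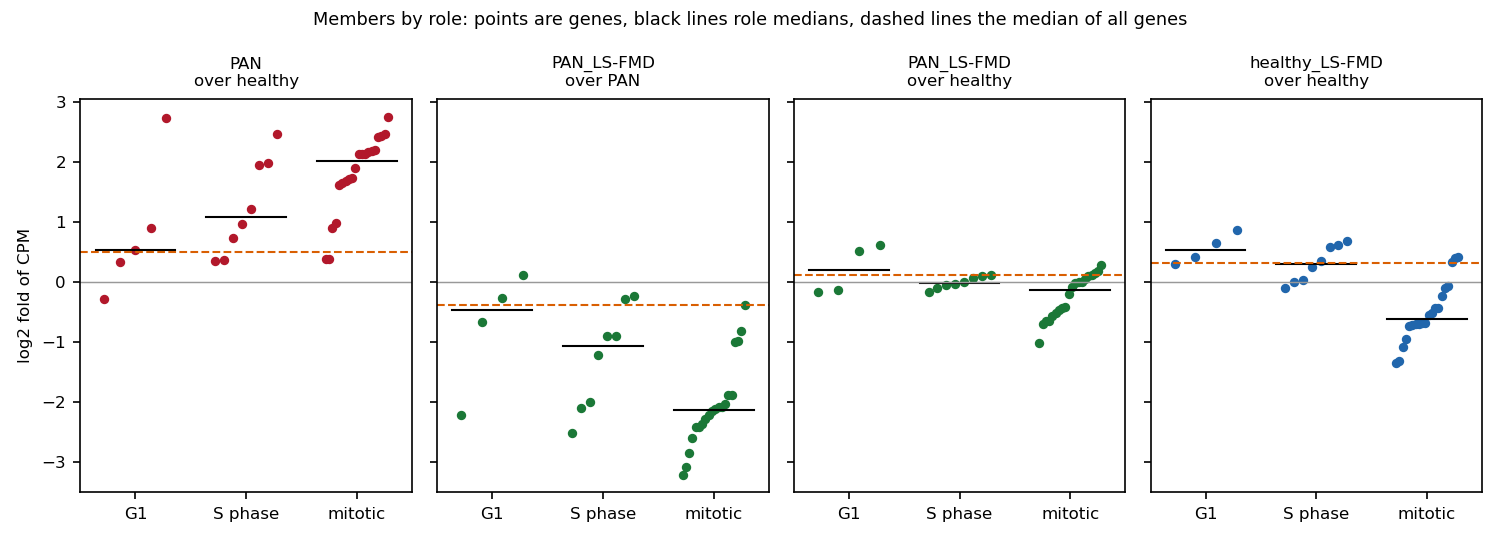
Log2 fold of CPM for the measured genes by role (G1, S phase, mitotic) in 4 comparisons, each point a gene, with role medians as black lines and the median of all genes dashed. Mitotic genes are farthest from the dashed line in PAN over healthy (median 2.02) and PAN_LS-FMD over PAN (median -2.13).

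In PAN_LS-FMD against PAN, 27 of 32 measured genes were lower and 0 were higher, where 35.5% of 12832 genes were called lower and 9.66% higher. The median log2 fold of all genes was -0.37, against -0.46 over 4 G1 genes, -1.06 over 8 S-phase genes and -2.13 over 20 mitotic genes. By role, 2 of 4 G1 genes, 6 of 8 S-phase genes and 19 of 20 mitotic genes were lower, with Kif11 the mitotic gene called neither way. Ccnb1 was 9.20 times lower in PAN_LS-FMD (5.57 to 16.1), with 18 UMIs there and 118 in PAN. Cenpf was 8.42 times lower (5.39 to 13.7), Top2a 7.15 times lower (5.27 to 9.89) and Mki67 5.28 times lower (4.20 to 6.71). Among replication genes Mcm3 was 5.66 times lower (4.58 to 7.06), Mcm5 4.25 times and Mcm6 4.0 times. This comparison shares the PAN section with the previous one, so a high level in that section moves both.

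The PAN_LS-FMD section was compared with the healthy section directly. Of 32 measured genes, 1 was higher and 3 were lower, where 6.79% and 4.49% of 12952 genes were called higher and lower. The gene called higher was Ccne2, at 2.03 CPM in PAN_LS-FMD and 1.31 CPM in healthy, a fold of 1.54 (1.10 to 2.16). Those called lower were Ccnb1 (0.515 CPM in PAN_LS-FMD and 1.04 CPM in healthy), Top2a (1.43 and 2.32 CPM) and Tpx2 (1.2 and 1.88 CPM). All 8 measured S-phase genes were called neither way, with log2 folds between -0.16 and 0.12. For Mki67 the fold was 1.01 (0.773 to 1.31) and for Cdk1 1.04 (0.80 to 1.35), so a difference inside these bounds was not detectable at this depth. Set against healthy_LS-FMD instead, 3 of 32 genes were higher in PAN_LS-FMD and 3 were lower, where 5.94% and 18% of all genes were. Medians against healthy were 0.20 over 4 G1 genes, -0.01 over 8 S-phase genes and -0.13 over 20 mitotic genes, beside 0.11 over all genes.

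After 1 diet cycle and refeeding, the genes called higher were G1 and S-phase genes and those called lower were mitotic. In healthy_LS-FMD against healthy, 5 of 32 measured genes were higher and 7 were lower, where 27.1% of 12948 genes were called higher and 5.21% lower. The 5 were Ccnd1, Ccne2, Mcm4, Mcm6 and Mcm7, a smaller share than among all genes. The 7 were all mitotic, namely Mki67, Top2a, Aurkb, Kif11, Tpx2, Prc1 and Ube2c. Medians of the log2 fold were 0.54 over 4 G1 genes and 0.31 over 8 S-phase genes, near the 0.33 of all genes, and -0.61 over 20 mitotic genes. Aurkb was 2.53 times lower in healthy_LS-FMD (1.39 to 4.96), Ube2c 2.49 times (1.82 to 3.48) and Top2a 2.10 times (1.39 to 3.28). Counts were small on that side, with 13 UMIs of Aurkb, 47 of Ube2c and 28 of Top2a. Ccnd1 was 1.58-fold higher in healthy_LS-FMD (1.53 to 1.62). In cortical spots alone 1 gene was higher and 1 lower, and the mitotic median was 0.02, against -0.61 over whole sections. Scaling also decides much of this contrast: with size factors by the median of ratios, 0 genes were higher and 13 lower, and the S-phase median turned to -0.04.

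The balance of S-phase to mitotic UMIs does not depend on how a section is scaled. It was 1.96 (1.87 to 2.06) in PAN_LS-FMD, 1.26 (1.21 to 1.31) in PAN, 3.17 (2.98 to 3.37) in healthy_LS-FMD and 1.72 (1.66 to 1.78) in healthy. PAN had the lowest ratio and healthy_LS-FMD the highest, and none of the 4 intervals overlapped. Without Pcna the ratios were 1.23, 0.919, 2.11 and 1.10 in the same order of sections, and without Kif11 they were 3.64, 1.63, 5.05 and 2.97, with the same ranking. In cortical spots they were 1.67, 1.06, 2.19 and 1.69, where PAN stayed lowest and healthy_LS-FMD highest while PAN_LS-FMD and healthy changed places.

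Spots holding several mitotic genes at once were counted after each spot had been thinned to 5000 UMIs, since the sections differed in depth. In PAN_LS-FMD, 17 of 2162 spots (0.786%, exact binomial interval 0.459 to 1.26) held UMIs of at least 3 of the 21 mitotic genes. In PAN it was 154 of 2323 (6.63%, 5.65 to 7.72), in healthy_LS-FMD 10 of 2206 (0.453%, 0.218 to 0.832) and in healthy 18 of 2861 (0.629%, 0.373 to 0.993). The PAN share lay outside the intervals of the other 3, which overlapped each other. At least 1 mitotic gene was found in 30.2% of spots in PAN_LS-FMD, 56.2% in PAN, 22.7% in healthy_LS-FMD and 31.9% in healthy. The most in any spot was 4 genes in PAN_LS-FMD, 6 in PAN, 5 in healthy_LS-FMD and 5 in healthy. Unthinned, the shares with 3 or more were 6.45%, 19.6%, 2.01% and 13.9% in that order of sections, where the deep healthy section comes nearer to PAN. Spots below 5000 UMIs numbered 25, 401, 387 and 5 and were left out.

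**Figure D3:**
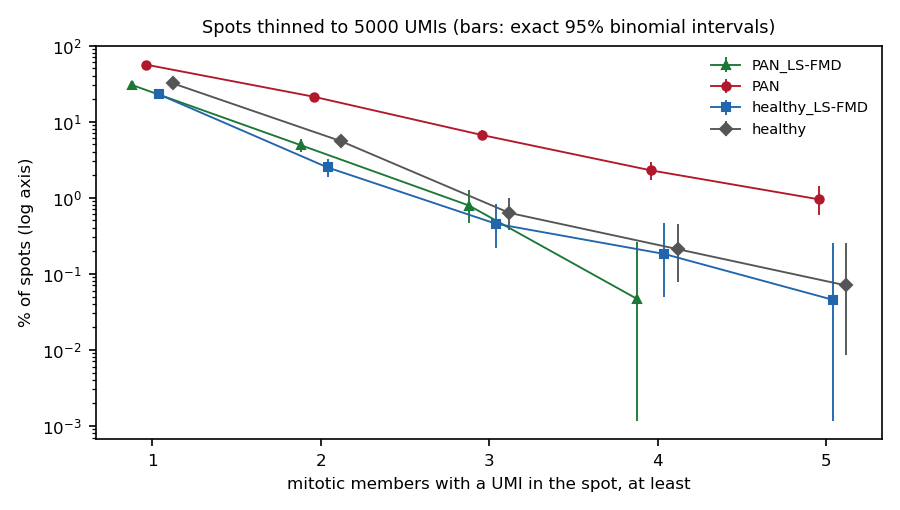
Share of thinned spots (percent, log axis) with at least 1 to at least 5 mitotic genes in each section, with exact 95% binomial intervals; the share of 0 in PAN_LS-FMD at 5 or more is not drawn. The PAN line lies above the other 3 throughout, at 6.63% for 3 or more genes.

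The 154 PAN spots held 20.3% of the mitotic UMIs of the thinned spots' full counts and 6.54% of all UMIs. The first share includes the UMIs by which the spots were chosen, so its excess over the second follows from the choice. The median depth of the 154 spots was 9351 UMIs, against 9184 UMIs in the remaining spots, so they were not simply deeper. Most mitotic UMIs thus lay outside these spots.

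S-phase genes were then used to choose spots and mitotic genes to be read. In PAN, the mitotic level was 183 CPM (177 to 190) in 1645 spots with 0 or 1 S-phase gene, 203 CPM (192 to 214) in 641 spots with 2 or 3, and 234 CPM (186 to 290) in 37 spots with 4 or more. The share of spots with at least 3 mitotic genes was 6.02%, 7.18% and 24.3% in these classes, the last from 9 of 37 spots (11.8 to 41.2). Spots with 2 or more S-phase genes held 1.12 times the mitotic level of the rest in PAN (1.05 to 1.19) and 1.09 times in healthy (1.00 to 1.18), a small excess. In PAN_LS-FMD it was 1.04 (0.916 to 1.17) and in healthy_LS-FMD 1.13 (0.981 to 1.30), where the intervals include 1. Without Kif11 the folds were 1.07 (0.906 to 1.26) in PAN_LS-FMD, 1.18 (1.09 to 1.26) in PAN, 1.28 (1.07 to 1.52) in healthy_LS-FMD and 1.14 (1.02 to 1.27) in healthy, so the interval of healthy_LS-FMD then leaves out 1.

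Regions were found by clustering each section without the 36 genes and the other cell cycle lists used here. Genes outside these lists, such as Stmn1, were not removed. Each region was given to a zone by marker genes. In PAN the mitotic level was 221 CPM (213 to 230) in cortex, 166 (157 to 175) in outer stripe and 136 (126 to 148) in medulla. A small region rich in smooth muscle and blood genes (Actg2, Myh11, Hba-a1) stood at 262 CPM (230 to 298) over 128 spots. Cortex held 99 of the 154 spots with at least 3 mitotic genes, or 64.3%, and 45.7% of the thinned spots. In cortex, outer stripe and medulla the levels were 82.7, 68.6 and 61.2 CPM in PAN_LS-FMD and 67.5, 56.1 and 43.4 CPM in healthy_LS-FMD. In healthy they were 76.6, 82.6 and 74.8 CPM in that order. The healthy medulla includes a region of 131 spots with Klk1c9 and Calb1 among its top genes. Regions with both of these genes at the top went to cortex in PAN_LS-FMD, PAN and healthy_LS-FMD, so the zones are not fully alike between sections. Kif11 alone was at 33.0, 21.5 and 8.15 CPM in these zones of healthy_LS-FMD and at 40.5, 32.7 and 25.6 CPM in those of healthy. Without Kif11 the mitotic level in cortex, outer stripe and medulla was 43.9, 36.8 and 34.5 CPM in PAN_LS-FMD and 179, 113 and 108 CPM in PAN. It was 34.4, 34.6 and 35.3 CPM in healthy_LS-FMD, with overlapping intervals, and 36.1, 49.9 and 49.2 CPM in healthy, where cortex (33.3 to 39.1) lay below outer stripe (46.9 to 53.0) and medulla (45.7 to 52.9). In the PAN_LS-FMD and PAN sections cortex was the highest of the 3 zones with and without Kif11, and differences between sections in this order were not tested.

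Single regions of PAN differed more than zones. The highest cortical region, led by Myrf, Slc7a7 and Slc5a2 with Havcr1 among its top 10 genes, stood at 260 CPM (240 to 281), and 31 of its 231 thinned spots (13.4%, 9.30 to 18.5) held at least 3 mitotic genes. Slc5a2 encodes the glucose transporter SGLT2 of the early proximal tubule, and Havcr1 encodes KIM-1, a marker of injured proximal tubule. A region led by Postn, Lum and Tnc, genes of fibrous matrix, stood at 236 CPM (217 to 256). The lowest region, led by Slc4a11 and marked by thick ascending limb genes, stood at 109 CPM (95.1 to 125). All 11 PAN regions had a higher level than any region of the other sections, the highest of which was a healthy region at 102 CPM (89.5 to 117), within the counting interval of the lowest PAN region.

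**Figure D4:**
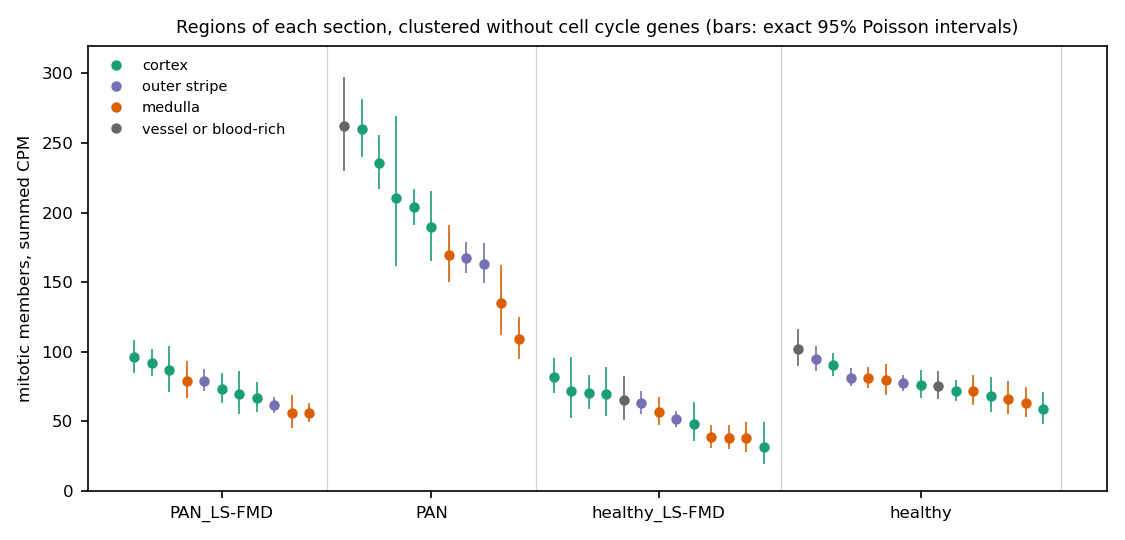
Summed CPM of the 21 mitotic genes in each region of each section, ordered from high to low and coloured by zone, with exact 95% Poisson intervals. PAN regions span 109 to 262 CPM and those of the other sections 31.9 to 102 CPM.

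Individual genes did not all share the cortical pattern. Mki67 in PAN was at 18.4 CPM in cortex, 9.85 in outer stripe and 11.2 in medulla, and Cdk1 at 15.3, 9.61 and 6.37 CPM. Mcm7 ran the other way in PAN, with 57.3 CPM in cortex, 61.1 in outer stripe and 74.4 in medulla. Kif11 was highest in the outer stripe of PAN, at 53.0 CPM (48.2 to 58.2), against 42.6 CPM in cortex and 28.2 CPM in medulla. Ccnd1 had its highest zone in the medulla of healthy_LS-FMD, at 389 CPM (376 to 403), with 233 CPM in its cortex. The values in healthy were 218 CPM in medulla and 167 CPM in cortex, so by these zones the difference of Ccnd1 between the sections was larger in medulla.

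Other genes in the PAN spots with at least 3 mitotic genes were compared with the remaining PAN spots. Of 37 measured mitosis genes outside the 36, 22 were higher there and 0 lower, where 1.79% of 11840 genes other than the 36 were called higher and 1.39% lower by the same rule. The summed fold of the list was 1.47 (1.38 to 1.56). Foxm1, the transcription factor of the mitotic programme, was 2.77-fold higher (1.63 to 4.51). Among all other genes with at least 100 UMIs in these spots, Havcr1 had the largest fold, 1.81 (1.65 to 1.97), with 380 CPM inside and 210 CPM outside. It was followed by Slc7a7 (1.72), Fam151a (1.71), Rdh10 (1.65), Slpi (1.61), Myrf (1.55), F3 (1.55), Stmn1 (1.53), Adamts1 (1.51) and Klk1c9 (1.5). Stmn1 encodes stathmin, a microtubule regulator that is itself linked to proliferation, F3 encodes tissue factor and Slpi a protease inhibitor. The spots were not matched for position. Cortex held 64.3% of these spots and 45.7% of the thinned spots, and the cortical region led by Myrf held 20.1% and 9.94%. Havcr1, Slc7a7, Rdh10, Myrf and Adamts1 were also among the top 10 genes of that region. The part of position in these folds was not tested.

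Markers of other cell types were read in the same spots. The podocyte list had a summed fold of 1.53 (1.34 to 1.75) with 3 of 6 measured genes higher, while Podxl was at 0.924 (0.708 to 1.19) and Synpo had 0 UMIs. Proximal S3 genes were at 0.537 of the level of other spots (0.513 to 0.561) and thick ascending limb genes at 0.587 (0.572 to 0.603). Early proximal tubule genes were at 1.02 (0.997 to 1.05). The tubular injury list was at 1.26 (1.24 to 1.27) with 1 of 6 genes called higher, Havcr1, while Spp1 was at 1.25 (1.24 to 1.27), Lcn2 at 1.17 (1.06 to 1.30) and Krt18 at 0.936 (0.682 to 1.26). Immune and stromal lists were near the level of other spots, with folds of 1.04 (0.994 to 1.09) for macrophages, 1.06 (0.920 to 1.23) for T and NK cells, 0.927 (0.895 to 0.960) for B and plasma cells and 1.05 (1.01 to 1.08) for fibrous matrix. Of 6 measured B and plasma cell genes, 1 was called higher and 0 lower, so a summed fold can hide single genes. The list folds too were not matched for position, and its part in them was not tested.

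Over whole sections the immune, fibrous matrix and tubular injury lists were, like the mitotic genes, highest in PAN. Among the other sections their order differed from that of the mitotic genes. Macrophage genes summed to 320 CPM in PAN_LS-FMD, 1219 in PAN, 207 in healthy_LS-FMD and 196 in healthy, with none of the 7 at 0. T and NK cell genes summed to 28.2, 133, 23.1 and 23.4 CPM and fibrous matrix genes to 370, 2245, 408 and 430 CPM in the same order of sections. B and plasma cell genes summed to 147, 2494, 153 and 62.7 CPM. Tubular injury genes summed to 288 CPM in PAN_LS-FMD, 17745 in PAN, 1404 in healthy_LS-FMD and 401 in healthy, and proximal S3 genes ran the other way, at 20810, 2344, 15859 and 20682 CPM. The part of these cell types in the whole-section differences of the cell cycle genes was not tested.

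**Figure D5:**
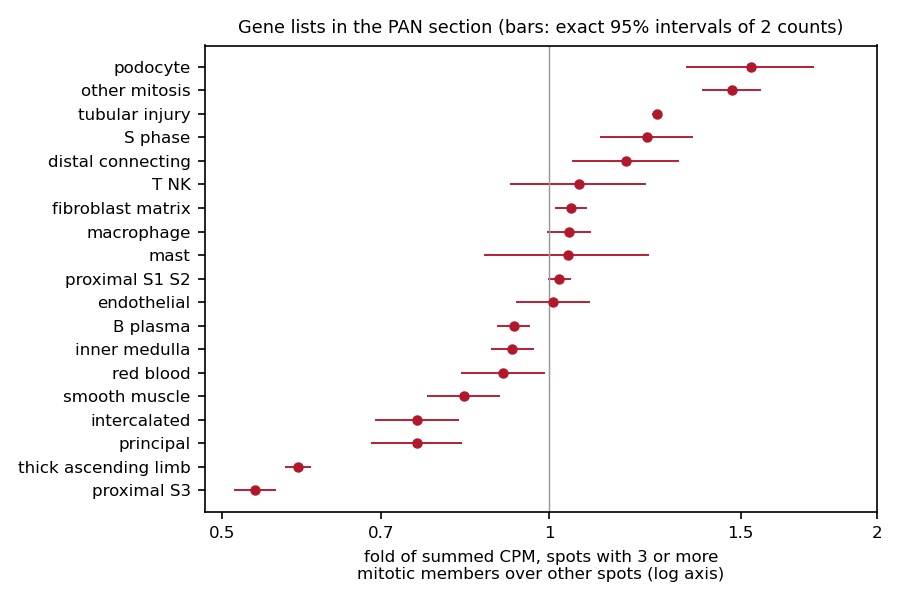
Fold of the summed CPM of gene lists in PAN, spots with at least 3 mitotic genes over other spots, on a log axis with exact 95% intervals. Podocyte and other mitosis lists are highest, immune lists lie near 1, and thick ascending limb and proximal S3 lists are lowest.

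The rare spots of the healthy section with at least 3 mitotic genes, 18 in all, were led by Atp6v1g3, a proton pump subunit of intercalated cells, at 2.43-fold (2.17 to 2.72), with 748 CPM inside and 308 CPM outside. Stmn1 (1.48) and Klk1c9 (1.42) were among the top 10 genes there as in PAN. The podocyte list at 1.33 (1.09 to 1.62), the tubular injury list at 1.47 (1.29 to 1.67) and the other mitosis genes at 1.76 (1.54 to 2.01) were above 1 in healthy too. The difference from the PAN spots was not tested, and with 18 spots this describes a few places in 1 section.

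Further genes of the pathway were read in whole sections. Of 29 measured replication genes in PAN against healthy, 21 were higher and 2 lower, with a median log2 fold of 0.89, beside the 44.3% of all genes called higher. Uhrf1, which recruits the maintenance DNA methyltransferase at replication, was 9.55-fold higher (6.44 to 14.5). Of 39 mitosis genes, 34 were higher and 2 lower, with a median of 1.53, led by Ttk, a checkpoint kinase, at 7.05-fold (4.47 to 11.5). The 2 lower were Cdc25b, at 0.562 CPM in PAN and 1.78 CPM in healthy, and Melk, at 8.14 CPM in PAN and 25.3 CPM in healthy. In PAN_LS-FMD against PAN the counts were 2 higher and 18 lower of 29 replication genes and 1 higher and 33 lower of 39 mitosis genes, the higher mitosis gene being Melk. Of all genes, 9.66% were higher and 35.5% lower in that comparison. In PAN_LS-FMD against healthy, 2 of 29 replication genes were higher and 2 lower, and 1 of 39 mitosis genes was higher and 5 lower, beside 6.79% and 4.49% of all genes. In healthy_LS-FMD against healthy, 10 of 29 replication genes were higher and 2 lower, with Gins3 at 2.20-fold and Cdc45 at 2.14-fold, while 4 of 39 mitosis genes were higher and 7 lower. With 27.1% of all genes called higher and 5.21% lower there, the count of replication genes is near that of all genes.

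Transcription factors of the cycle were higher in 7 of 13 measured cases and lower in 1 (Tfdp2) in PAN against healthy, near the 44.3% of all genes called higher. Myc stood at 42.9 CPM in PAN and 11.8 CPM in healthy, a fold of 3.63 (3.30 to 4.0). Mybl2, the B-Myb of the MuvB complex, was 2.98-fold higher (2.07 to 4.31) and E2f1 2.83-fold (2.20 to 3.65). In PAN_LS-FMD against PAN, 6 of 12 were lower and 1 higher, where 35.5% of all genes were lower and 9.66% higher. Myc was 3.65 times lower in PAN_LS-FMD. Against healthy, 0 of 13 were called in PAN_LS-FMD, where 6.79% of all genes were higher and 4.49% lower. In healthy_LS-FMD, 1 of 13, Tfdp1, was called higher, where 27.1% of all genes were.

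Of 7 measured inhibitors of cyclin-dependent kinases, 4 were higher in PAN than in healthy, where 44.3% of all genes were. They were Cdkn2a (85 UMIs in PAN, 4 in healthy), Cdkn2b (18.9 CPM in PAN, 0.529 CPM in healthy), Cdkn1a (47.1 and 15.7 CPM) and Cdkn3 (4.93 and 2.07 CPM). The same 4 of 7 were lower in PAN_LS-FMD than in PAN, where 35.5% of all genes were. Among them, Cdkn2a was at 1 UMI, a ratio of 119 (20.8 to 4765), and Cdkn2b was 34.7 times lower (22 to 58.2). In PAN spots with at least 3 mitotic genes, 2 of 7 inhibitors were called higher than in other PAN spots and 0 lower. By the same rule 1.79% of genes other than the 36 were higher and 1.39% lower. Cdkn1a was at 1.11 times the level of other spots (0.874 to 1.40), Cdkn2b at 0.861 (0.550 to 1.29) and Cdkn3 at 2.24 (1.23 to 3.82). The value of Cdkn2a in these spots is not reported here. Not all inhibitors were highest in PAN: Cdkn1c was at 15.8 CPM in PAN_LS-FMD, 11.03 in PAN, 27.0 in healthy_LS-FMD and 8.86 in healthy, and Cdkn1b at 6.21, 9.31, 10.0 and 6.54 CPM in the same order. In healthy_LS-FMD, Cdkn1c was 3.04-fold higher than in healthy (2.71 to 3.42) and Cdkn3 4.36 times lower (2.41 to 8.67).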

How the data were processed

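The deposited matrices hold UMI counts per gene and spot, with no normalisation. Per the file headers, the authors made them with Space Ranger 1.2.1, and that of healthy with 2.0.1. The genome build was not given in the sources used here. No spot images or positions were used, and no doublet caller was run.

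Spots under 500 UMIs were left out (3, 5, 2 and 3 in PAN_LS-FMD, PAN, healthy_LS-FMD and healthy). Counts were summed per section and divided by the section total (CPM). Levels have exact Poisson intervals, folds exact intervals of 2 Poisson counts, and shares Clopper-Pearson intervals, all at 95% and for counting error only. Spots were thinned without replacement to 5000 UMIs (seed 11). Each section was clustered alone, without the genes of the cell cycle lists (scanpy 1.11.5, 2000 variable genes, 30 components, 15 neighbours, Leiden resolution 1). A region went to the zone of the highest of 7 marker lists: cortex for podocyte, early proximal or distal genes, outer stripe for proximal S3 genes, medulla for thick ascending limb, principal or inner medulla genes. It was called vessel or blood-rich where smooth muscle or red blood cell genes ranked first of all lists. Other lists, such as intercalated cells, gave no zone, so regions led by them lie in cortex or medulla. Regions with Klk1c9 and Calb1 among their top genes went to medulla in healthy and to cortex in the other sections. Values by zone and in cortical spots alone therefore do not cover the same tissue in every section. Zones were defined with these data already in view. The sections share between 1650 and 2279 spot barcodes, since Visium slides use 1 fixed set. The call rule was tested on simulated counts, with intervals that covered the known fold about as often as stated overall and less often in some small classes of changed genes.

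The 36 genes and the other lists were chosen with earlier results of these data known. All 36 were named, with up to 4 per pathway list at 50 UMIs or more, and in spots with at least 3 mitotic genes the 10 genes of highest fold at 100 UMIs. Splits by 1 gene and by zone for single genes were added after seeing the data, as were the alternatives without Kif11, by zone too, and, for spots, with cortical spots only. Promoter sequences are RefSeq's (GRCr8). Results for some single genes of the lists are not reported here.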

Additional observations from a re-analysis of the deposited data

Results flagged for a closer look

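For 3 replication genes the diet section differed from its undieted counterpart in opposite directions with and without the injection. The log2 fold of Mcm4 was -1.22 in PAN_LS-FMD over PAN and 0.69 in healthy_LS-FMD over healthy. For Mcm6 the values were -2.00 and 0.60, and for Mcm7 -0.90 and 0.62, in the same order. The median log2 fold of all genes was -0.37 and 0.33 in these comparisons. With size factors by the median of ratios, 0 genes were called higher in healthy_LS-FMD over healthy, so these 3 calls end. With 1 section per group the difference between these folds was not tested, and the diet sections differ in number of cycles and in time since the last one.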

How the results depend on the processing

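Of 184 values recomputed under an alternative, 110 stayed within the spread allowed, 73 moved and 1 was counted as reversed. A reversal was counted only where the main value lay beyond its own counting spread, so further changes of sign are among the others. In cortical spots the mitotic median went from -0.61 to 0.02 in healthy_LS-FMD over healthy. In PAN_LS-FMD over healthy it went from -0.13 to 0.28. The causes of these moves were not tested. With size factors by the median of ratios, 21 genes were higher and 1 lower in PAN over healthy, against 26 and 0 in the main setting. In PAN_LS-FMD over PAN, 0 were higher and 23 lower, against 0 and 27. These factors gave 0 higher and 7 lower in PAN_LS-FMD over healthy, and 0 higher and 13 lower in healthy_LS-FMD over healthy. Under the same factors the median log2 fold of S-phase genes was 0.58 and that of mitotic genes 1.51 in PAN over healthy, the S-phase median was -0.68 in PAN_LS-FMD over PAN, and it reversed to -0.0352 in healthy_LS-FMD over healthy. With healthy_LS-FMD in place of healthy, 1 gene was lower in PAN and 3 were higher in PAN_LS-FMD, and the PAN medians were 0.61 (S-phase) and 2.42 (mitotic). Without haemoglobin, mitochondrial and ribosomal protein genes in the total, 0 were higher in PAN_LS-FMD over healthy. A 2-fold limit left 0 higher and 1 lower in PAN_LS-FMD over healthy, and 0 and 3 in healthy_LS-FMD over healthy. In cortical spots alone, 4 were higher and 0 lower in PAN_LS-FMD over healthy, 1 and 1 in healthy_LS-FMD over healthy, the mitotic median was 2.65 in PAN over healthy and the S-phase median 0.18 and the mitotic median 0.02 in healthy_LS-FMD over healthy.

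The S-phase to mitotic ratio in PAN_LS-FMD, PAN, healthy_LS-FMD and healthy was 1.23, 0.919, 2.11 and 1.10 without Pcna and 3.64, 1.63, 5.05 and 2.97 without Kif11, and 1.67, 1.06, 2.19 and 1.69 in cortical spots, where PAN_LS-FMD and healthy changed places. In the same order, the share of spots with several mitotic genes was 0.183, 2.49, 0.118 and 0.140% at 3000 UMIs, 1.45, 18.4, 1.22 and 2.0% at 8000 UMIs, 4.90, 21.2, 2.49 and 5.52% for 2 or more genes, 0.0463, 2.28, 0.181 and 0.210% for 4 or more, and 6.45, 19.6, 2.01 and 13.9% unthinned. PAN had the highest share under each of these. Chosen after seeing the data, leaving out Kif11 gave 0.416% in PAN_LS-FMD and 4.65% in PAN, and cortical spots alone gave 9.70% in PAN. At 3000 UMIs, spots with several S-phase genes held 1.04 times the mitotic level of the rest in PAN and 0.905 times in healthy_LS-FMD. At Leiden resolution 0.5 the mitotic level was 148 CPM in PAN medulla and 61.6 CPM in healthy_LS-FMD cortex. Chosen after seeing the data, leaving out Kif11 gave, in cortex, outer stripe and medulla, 43.9, 36.8 and 34.5 CPM in PAN_LS-FMD, 179, 113 and 108 CPM in PAN, 34.4, 34.6 and 35.3 CPM in healthy_LS-FMD, and 36.1, 49.9 and 49.2 CPM in healthy, where the order of zones changed.

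No paired analysis was possible because each group has 1 section. Depth limits the rarest genes: Ccnd2, Rrm2 and Bub1b had too few UMIs to compare in most or all comparisons. The diet, the injection and the animal cannot be told apart from the section, and for healthy also from the Space Ranger version.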
